A study of Mus musculus with 6 samples.

Results

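The MHC class II pathway was followed here through 10 genes, chosen by symbol from the 31053 features of the count tables. They are H2-Aa, H2-Ab1, H2-Eb1, H2-DMa, H2-DMb1, H2-DMb2, Cd74, Ciita, Ctss and Cd40, and each symbol matched 1 feature. Their RNA was measured in cells of the mouse cornea, in immune cells, keratocyte-like cells and epithelial-like cells, and set against the free RNA of the same library. The study asked what the microRNA (miRNA) cluster miR-183/96/182, called miR-183C in the labels, does to the cells of the cornea. Single-cell 10x Genomics libraries were made from wild-type (WT) mice and from miR-183C knockout mice (KO, miR-183C GT/GT), all naive females on a 129S2–C57BL/6-mixed background, with WT littermates as controls. There were 4 libraries of whole cornea (WT and KO at 2 months, WT and KO at 6 months) and 2 of CRIC at 6 months (WT and KO), that is, cornea cells positive for CD45, the pan-leukocyte surface protein, enriched on magnetic beads. Each group was 1 library, so no pair of WT and KO libraries has a replicate. Nothing states how many mice went into a library, and p-values therefore reach no further than these 6 libraries. In the genotype and age tests, with 1 or 2 residual degrees of freedom, they rest largely on a spread shared across genes. They do not measure each gene's own spread between libraries.

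MHC class II molecules are pairs of one alpha and one beta chain that carry peptides from engulfed protein to the surface of antigen-presenting cells, where CD4+ T cells read them. New pairs are held by the invariant chain, which is cut by proteases in the endosome until a last fragment is left in the groove, and the DM molecule then swaps that fragment for a peptide. The genes of this machinery share promoter boxes bound by common factors and are switched on together by the coactivator CIITA, in macrophages, dendritic cells and B cells, and in other cells after interferon gamma. In the cornea, class II is best known from the resident macrophages and dendritic cells of the stroma and epithelium.

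H2-Aa, H2-Ab1 and H2-Eb1 encode the classical chains, and H2-DMa, H2-DMb1 and H2-DMb2 the DM chains. All 6 lie on chromosome 17 within chr17:34119541-34316674 of mm10 (197 kb), as annotated by GENCODE. The other 4 members lie elsewhere: Cd74 (the invariant chain) on a chromosome of its own, Ciita at chr16:10480059-10528418, Ctss (cathepsin S, a protease that cuts the invariant chain) at chr3:95526786-95556403 and Cd40 (the receptor for CD40 ligand of T cells) at chr2:165055627-165072948. RefSeq (GRCm38.p6) promoter entries were matched for 6 members: H2-Aa, H2-Eb1, H2-DMa, H2-DMb1, H2-DMb2 and Ctss. The bases from -140 to -20 of the start are shown for the 3 below, because most members ran together across the immune cells and these promoters hold 1 or both of the boxes. Capitals mark the X box AACNGATGATGC and the Y box TGATTGG, each searched on both strands. The letters of the X box were read from the promoters of H2-Eb1, H2-DMb1 and H2-DMb2, starting 28, 29 and 29 bases before their Y box. Its rarity is therefore a description only.
H2-Eb1, chr17:34305727-34305847, plus strand: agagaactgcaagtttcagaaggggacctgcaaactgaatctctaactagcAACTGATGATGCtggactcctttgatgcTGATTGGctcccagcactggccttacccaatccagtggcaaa
H2-DMb2, chr17:34145109-34145229, plus strand: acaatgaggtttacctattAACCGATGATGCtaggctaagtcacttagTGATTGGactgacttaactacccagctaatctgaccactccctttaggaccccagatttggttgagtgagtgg
H2-Aa, chr17:34287843-34287963, minus strand: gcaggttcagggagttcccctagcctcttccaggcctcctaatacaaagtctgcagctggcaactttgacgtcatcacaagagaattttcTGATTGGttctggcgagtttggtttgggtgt
The Y box was found in 7.82% of 32851 RefSeq promoters of 300 bases, and the X box in 5 of them. Both boxes were in 3 promoters, those of H2-Eb1, H2-DMb1 and H2-DMb2, from which the X letters had been read. Their first bases are 28, 29 and 29 bases apart there by that choice, so neither the pairing nor the spacing is a finding. H2-Aa held the Y box at -50 and no copy of the X letters, and neither motif was matched in the entries for H2-DMa and Ctss.

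The miRNAs that the knockout removes are shown next, with the seed (bases 2 to 8) in capitals, since a direct target often, but not always, carries a full match to it.
mmu-miR-182-5p: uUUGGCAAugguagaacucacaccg
mmu-miR-96-5p: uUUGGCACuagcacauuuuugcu
mmu-miR-183-5p: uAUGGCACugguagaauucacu
The seed of each was searched in the longest annotated 3′ UTR of every gene. None of the 10 members held a match to any of the 3 seeds, beside 10.9% of 20968 genes for miR-182-5p, 7.89% for miR-96-5p and 8.78% for miR-183-5p. The members' 3′ UTRs were short, with a median of 475 bases against 954 over all genes. A missing match says only that these letters are not in these UTRs.

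The libraries held 9827933 to 117613142 unique molecular identifiers (UMIs, counted transcripts) and 3327 to 15086 cells each. Cells shared 2 to 32 barcodes between any pair of libraries. The immune class held 181, 182, 178 and 324 cells in the cornea libraries (2-month WT, 2-month KO, 6-month WT, 6-month KO) and 1612 and 2419 in the WT and KO CD45-enriched libraries. Ptprc, which encodes CD45, reached 284 to 471 CPM (its UMIs scaled to a common library total) in the immune class and at most 0.64 CPM in keratocyte-like cells. The 2-month KO library carried 3377 UMIs of Y-linked genes, beside 0 to 3 in the other 5, although it is labelled female. The counts of members above free RNA are given with and without it. In the genotype and age tests by class, the members' median or calls are also given without it. The interaction of genotype and age, and values of single genes outside the members, are not. Barcodes of 100 UMIs or fewer were taken as free RNA, RNA that leaked from broken cells into the droplets. They made up 7.58 to 9.12% of UMIs in 5 libraries and 16.2% in the WT CD45-enriched one.

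The first question was which cells hold more class II pathway RNA than the free RNA around them. In immune cells 9 of the 10 members stood above free RNA in all 6 libraries, and the exception was Cd40. In keratocyte-like cells only Cd40 did so, and in epithelial-like cells none. The classical chains and Cd74 were therefore measured at high levels in immune cells and, in keratocyte-like and epithelial-like cells, below the level of the medium. All levels are CPM of summed UMIs, which count 1 end of a transcript and are not divided by length.

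Cd74 reached 28111, 29918, 32162 and 7371 CPM in the immune cells of the cornea libraries, in the order given above, and 24801 and 19120 CPM in the WT and KO CD45-enriched libraries. In free RNA of the same libraries it stood at 206, 120, 158, 186, 2259 and 4492 CPM. Immune cells lay above free RNA in every library, and the 6-month KO cornea lay far below the other 5. H2-Aa, the alpha chain of I-A, reached 9232, 8903, 8257, 2322, 8023 and 4891 CPM in immune cells. H2-Aa UMIs were seen in 95.03, 94.5, 92.1, 38.0, 96.0 and 72.8% of these cells, or in 94.5, 92.3, 88.2, 35.2, 93.4 and 64.6% after each was thinned to 500 UMIs. The 6-month KO cornea was again lowest and the KO CD45-enriched library next. In keratocyte-like cells, which should lack the gene, 0.30 to 1.04% of cells in the corneas and 9.02 and 9.54% after enrichment had an H2-Aa UMI, at median depths of 1731.5 to 5179 UMIs against 790.5 to 1650.5 in immune cells. H2-Ab1, the beta chain paired with it, ran from 3081 CPM in the 6-month KO cornea to 13334 CPM in the 2-month WT cornea. H2-Eb1, the beta chain of I-E, ran from 2952 CPM in the 6-month KO cornea to 15244 CPM in the 2-month KO cornea. The mean ratio of immune cells to free RNA was 46.1-fold for H2-Aa, 51.2-fold for H2-Ab1, 51.0-fold for H2-Eb1 and 48.3-fold for Cd74.

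Each of these ratios was above 1 in 6 of 6 libraries (exact two-sided sign-flip permutation test over libraries, p = 0.03125, the smallest that 6 libraries allow, adjusted p = 0.0391 over 30 tests). Over all genes, 15.1% of 13999 were higher in immune cells in all 6 libraries and 19.1% were lower. The ratios were smaller in the CD45-enriched libraries, whose free RNA itself held more class II RNA. For H2-Aa free RNA stood at 40.7 to 69.2 CPM in the corneas and at 788 and 1135 CPM after enrichment.

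The DM genes, whose products load the peptide, were lower in CPM than the classical chains. H2-DMa reached 651, 679, 846 and 255 CPM in the immune cells of the corneas and 591 and 425 CPM after enrichment, a mean of 15.6-fold over free RNA. H2-DMb1 reached 615, 734, 673 and 139 CPM, and 640 and 507 CPM, a mean of 14.9-fold. The 6-month KO cornea was lowest for both. H2-DMb2 was scarce, from 5.04 CPM (1 UMI) in the 2-month WT cornea to 104 CPM in the 6-month WT cornea, and its mean ratio was 6.84-fold. H2-DMb1 and H2-DMb2 are near-identical neighbours, so that reads may have been split between them and both values are uncertain.

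Ciita, the coactivator that switches the pathway on, was scarce but above free RNA in all 6 libraries. It reached 40.4 CPM (95% exact interval 17.4 to 79.5, from 8 UMIs), 99.2 CPM (60.6 to 153) and 80.8 CPM (53.7 to 117) in the first 3 corneas. It stood at 29.5 CPM (14.7 to 52.8, from 11 UMIs) in the 6-month KO cornea. The WT and KO CD45-enriched libraries held 120 CPM (103 to 139) and 72.3 CPM (64.6 to 80.7). Intervals cover counting error only. In the cornea libraries they overlapped, except that the 6-month KO interval ended below those of the 2-month KO and 6-month WT corneas.

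Ctss was the member with the steadiest level in immune cells. It stood at 1266, 1314, 1314 and 1268 CPM in the corneas and at 1528 and 1493 CPM after enrichment, a mean of 22.2-fold over free RNA. The 6-month KO cornea lay inside the range of the other libraries here, in contrast to the classical chains. Cd40 was all but missing from immune cells, at 0 to 8.66 CPM and below free RNA in 6 of 6 libraries (adjusted p = 0.0391, same exact permutation test).

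**Figure D1:**
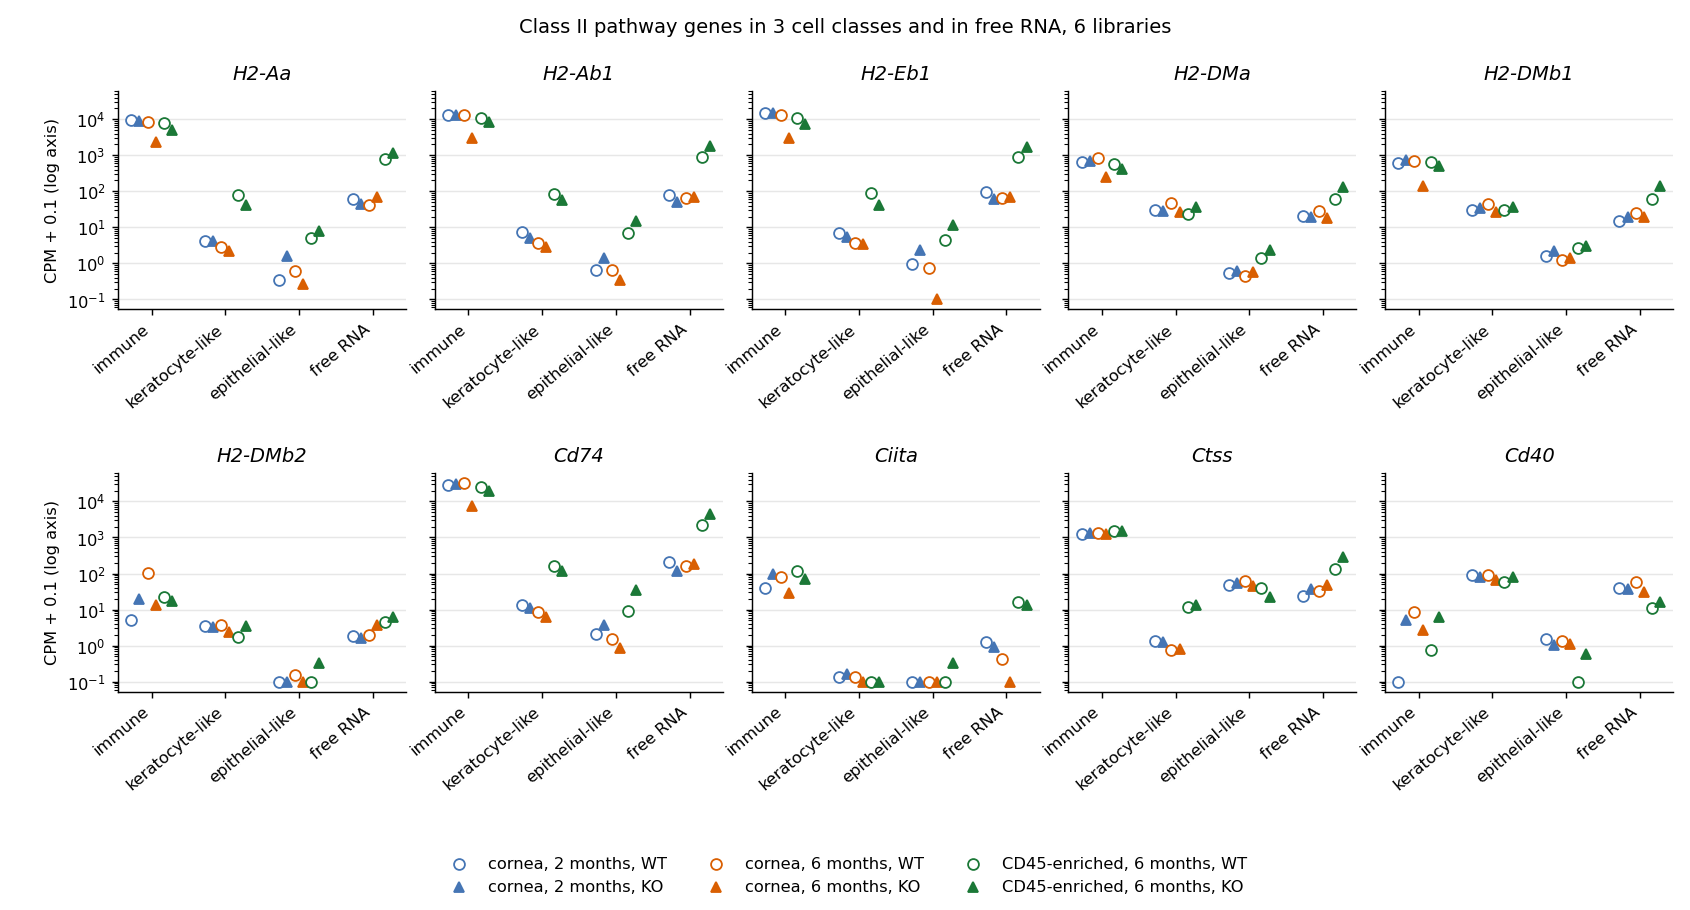
Level of each of the 10 genes (CPM + 0.1, log axis) in immune, keratocyte-like and epithelial-like cells and in free RNA, 1 point per library, open circles for WT and filled triangles for KO. H2-Aa, H2-Ab1, H2-Eb1 and Cd74 sit high in immune cells and below free RNA in keratocyte-like and epithelial-like cells, Cd40 is highest in keratocyte-like cells, and the 6-month KO cornea (filled orange triangle) is the lowest immune point for the classical chains.

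Within the immune class the 4 genes H2-Aa, H2-Ab1, H2-Eb1 and Cd74, called the core here, separated sub-clusters that had been formed without the members or other class II genes. The sub-cluster led by Apoe (1535 cells, macrophage-like) was present with at least 20 cells in all 6 libraries. Its core sum was 67792, 70704, 77852 and 59401 CPM in the corneas and 56795 and 58401 CPM in the WT and KO CD45-enriched libraries. Among the corneas the 6-month KO, with 35 such cells, was the lowest, close to the levels of the enriched libraries.

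The sub-cluster led by Arg1, Spp1, Fn1 and Fabp5 (542 cells) was much lower, at 6700 CPM in the 6-month KO cornea and 13707 CPM in the KO CD45-enriched library. It was left unnamed, because no macrophage marker was among its top 10 genes and 1 marker of another class was. Its best match was nonetheless macrophage, with 12 macrophage markers seen in it. The sub-clusters led by Mmp12, and by Mgl2 and Mmp12, also had no macrophage marker among their top 10 genes. They had no marker of another class there and were named macrophage-like. With another clustering seed a sub-cluster led by Mgl2 and Napsa was unnamed too, so the name is not firm. It made up 58.0% of immune cells in the 6-month KO cornea (188 cells) and 13.7% in the KO CD45-enriched library (332 cells), and 0 to 2.25% in the other 4. Its Ctss level was 1462 and 990 CPM in the same 2 libraries, in the range of the macrophage-like sub-clusters. Arg1 encodes arginase 1, and Spp1 and Fn1 the secreted proteins osteopontin and fibronectin.

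Most other macrophage-like sub-clusters had core levels like that of the Apoe-led one. In the CD45-enriched pair, WT then KO, the core was 58715 and 59704 CPM in the Ccl12-led sub-cluster, 52398 and 56755 CPM in the Mmp12-led one and 52898 and 54058 CPM in the one led by Mgl2 and Mmp12. All 3 were slightly higher in KO. The last reached 83547 CPM in the 6-month WT cornea. The sub-cluster led by Mgl2 and Ccl6 was lower, at 43173 and 42640 CPM. In the corneas the Ccl12-led one held 70664 CPM at 2 months in WT and 48504 CPM at 6 months in KO. The macrophage-like sub-cluster led by Pltp held 53304 CPM in the 6-month WT cornea, and 45923 and 29306 CPM in the WT and KO CD45-enriched libraries, and was the macrophage-like sub-cluster with the clearest lower value in KO in the enriched pair. H2-DMb2 was concentrated in the macrophage-like sub-cluster led by Mgl2 and Mmp12, at 402 CPM in the 6-month WT cornea and at 109 and 138 CPM in the WT and KO CD45-enriched libraries. T cell or ILC-like cells held a core of 47.0 and 280 CPM in these last 2 libraries. Neutrophil-like cells led by S100a8, S100a9 and Lrg1 held 454 CPM in the KO CD45-enriched library. All of these lie below the free RNA of their library, in which Cd74 alone stood at 2259 CPM (WT) and 4492 CPM (KO). A further sub-cluster named neutrophil-like on 3 detected markers (142 cells in the KO CD45-enriched library) held 33192 CPM. Its Ctss of 1875 CPM and Ciita of 216 CPM were unlike the 182 and 0 CPM of the neutrophil-like cells led by S100a8, S100a9 and Lrg1. The name of this sub-cluster is therefore uncertain.

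**Figure D2:**
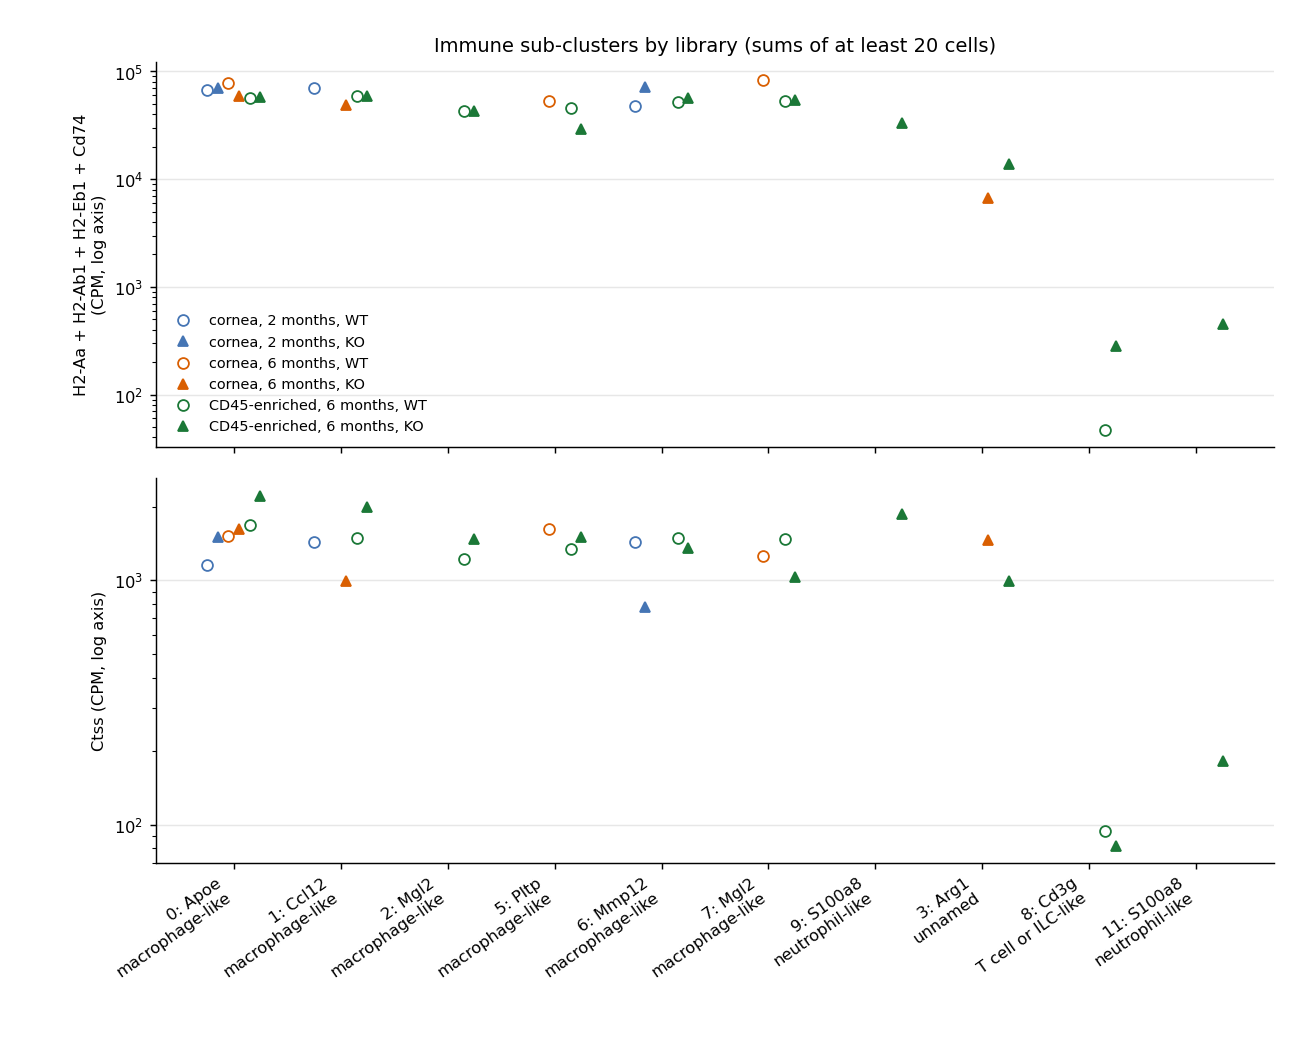
Core level (upper panel, H2-Aa + H2-Ab1 + H2-Eb1 + Cd74) and Ctss level (lower panel) in CPM on log axes, by immune sub-cluster and library, for sums of at least 20 cells. The Arg1-led sub-cluster stands at 6700 and 13707 CPM for the core, below the macrophage-like sub-clusters, whereas its Ctss of 1462 and 990 CPM does not stand apart.

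The core share of single immune cells showed the same split. The median immune cell gave 6.57, 6.76 and 7.04% of its UMIs to the core in the 2-month WT, 2-month KO and 6-month WT corneas, and 0.147% in the 6-month KO cornea. The medians were 5.62 and 3.68% in the WT and KO CD45-enriched libraries. Cells under 0.5% made up 4.42, 4.95 and 5.62% of the first 3 corneas, 57.7% of the 6-month KO cornea, and 3.10 and 23.6% after enrichment. Cells at 8% and over were 29.3, 29.7, 34.8 and 5.86% in the corneas, and 8.19 and 8.10% after enrichment. The 6-month KO cornea thus held both kinds of cell, with most of them at the low end.

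**Figure D3:**
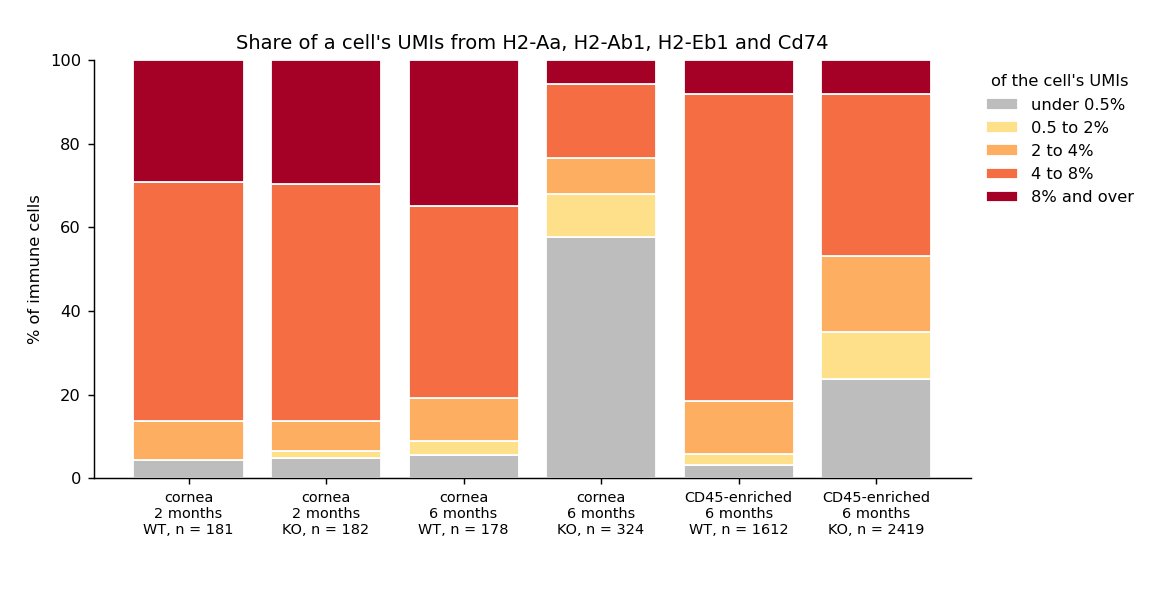
Share of immune cells (percent, stacked to 100) by how much of a cell's UMIs came from the 4 core genes, in 5 ranges from under 0.5% to 8% and over, for the 6 libraries with their number of immune cells. The grey range, under 0.5%, takes 57.7% of the 6-month KO cornea and 23.6% of the KO CD45-enriched library, and 3.10 to 5.62% of the other 4.

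In keratocyte-like cells, the fibroblast-like cells of the stroma, Cd40 was the only member above free RNA in all 6 libraries. It stood at 88.1, 77.5, 93.4 and 65.3 CPM in the corneas and at 59.4 and 78.9 CPM in the WT and KO CD45-enriched libraries, against 38.4, 36.7, 56.7, 31.4, 10.7 and 16.1 CPM in free RNA. The libraries lay close together, and the mean ratio was 2.77-fold (exact permutation p = 0.03125, adjusted p = 0.0391). Keratocyte-like cells are most of the cornea cells here, and 46.2% of 16148 genes were higher in them than in free RNA in all 6 libraries, so a gene above free RNA is common in this class. They held 92.5 to 96.8% of all Cd40 UMIs of the cornea cells. Cd40 was present in each of the 4 largest keratocyte-like clusters, at 50.2 to 95.4 CPM over libraries in the Lum-led one, 59.6 to 99.5 CPM in the Tnmd-led one, 51.4 to 68.7 CPM in the larger Lars2-led one and 64.8 to 87.8 CPM in the Atf5-led one. In the Lars2-led cluster of the 6-month WT cornea, at 55.7 CPM, it did not exceed free RNA (56.7 CPM).

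The DM genes were seen in keratocyte-like cells at low levels. H2-DMa stood at 30.1, 28.8, 47.1 and 25.9 CPM in the corneas, above free RNA (18.4 to 29.03 CPM) in all 4, and at 23.0 and 35.7 CPM after enrichment, below free RNA there. H2-DMb1 stood at 30.1, 34.2, 43.3 and 26.8 CPM, above free RNA (14.8 to 25.7 CPM) in all 4 corneas, and at 30.5 and 37.0 CPM after enrichment, again below. The 6-library test did not separate either from free RNA (exact permutation p of 0.6875 and 1). Because keratocyte-like cells were so many, they held 77.4 to 85.3% of the H2-DMb1 UMIs of cornea cells, and immune cells 7.8 to 10.9%. H2-DMa overlaps Brd2, which lies on the other strand and reached 196 to 382 CPM in keratocyte-like cells. Whether counting used strand is not given in the sources used here, and reads of the overlap cannot then be told apart.

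H2-Aa, H2-Ab1, H2-Eb1, Cd74 and Ctss lay below free RNA in keratocyte-like cells of all 6 libraries (adjusted p = 0.0391 each, exact permutation test), beside 10.1% of all genes. Ciita lay below it in the 5 libraries where a ratio could be formed (exact permutation p = 0.0625), and H2-DMb2, at 1.61 to 3.73 CPM, lay above it in 3 libraries and below it in 3. H2-Aa stood at 4.22, 4.07, 2.80 and 2.09 CPM in the corneas and at 78.1 and 41.3 CPM after enrichment. In free RNA H2-Aa stood at 59.3, 43.2, 40.7 and 69.2 CPM in the corneas and at 788 and 1135 CPM after enrichment. Both levels were higher after enrichment. They fell in the same order over the first 3 corneas, but not in the 6-month KO cornea or in the enriched pair. The part of free RNA in these counts was not tested. The few core UMIs of this class were gathered in few cells. Keratocyte-like cells with at least 3 core UMIs were 0.20 to 1.02% of the class in the corneas and 9.23 to 11.1% after enrichment, yet held 46.5 to 86.5% of its core UMIs. Of these cells, 40.3 to 61.4% also had a UMI of a pan-immune marker such as Ptprc or Tyrobp, against 0.55 to 2.78% of cells with 0 core UMIs. Scrublet, the doublet caller used, marked 0 cells in the cornea libraries and was not relied on there, so the part of doublets in these cells was not tested.

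In epithelial-like cells 8 of 10 members lay below free RNA in all 6 libraries, beside 21.0% of 14883 genes, and none above, beside 14.2%. The exceptions were Ciita, which was at 0 in 4 of the 5 libraries its test used, and Ctss. Cd74 stood at 0.74 to 3.73 CPM in the corneas and at 9.32 and 35.01 CPM after enrichment. H2-DMa stood at 0.34 to 2.26 CPM and Cd40 at 0 to 1.41 CPM.

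Ctss stood at 49.2, 55.0, 62.1 and 45.9 CPM in epithelial-like cells of the corneas and at 39.5 and 22.2 CPM after enrichment. It was above free RNA in the first 3 corneas and below it in the other 3 libraries (exact permutation p = 0.594). This class held 49.8 to 78.4% of the Ctss UMIs of cornea cells. The level was concentrated in some clusters. It was 57.0 to 101 CPM over 6 libraries in the cluster led by Lce3a and 71.8 to 137 CPM in that led by Slc16a11, but 0 to 9.30 CPM in the one led by Krt14, a keratin of basal cells, and 0 to 5.31 CPM in the larger one led by Gsta2. The Muc4-led cluster held 25.4 to 65.2 CPM in the 4 corneas, a range that overlapped that of the Lce3a-led one. The smaller Gsta2-led cluster held 0 to 36.6 CPM and the Spink5-led one 0 to 17.04 CPM. Median depth was 11949 UMIs per cell in the Lce3a-led cluster and 4353 in the Krt14-led one in the 2-month WT cornea, but 1868 in the Muc4-led one. The part of depth in these differences was not tested.

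**Figure D4:**
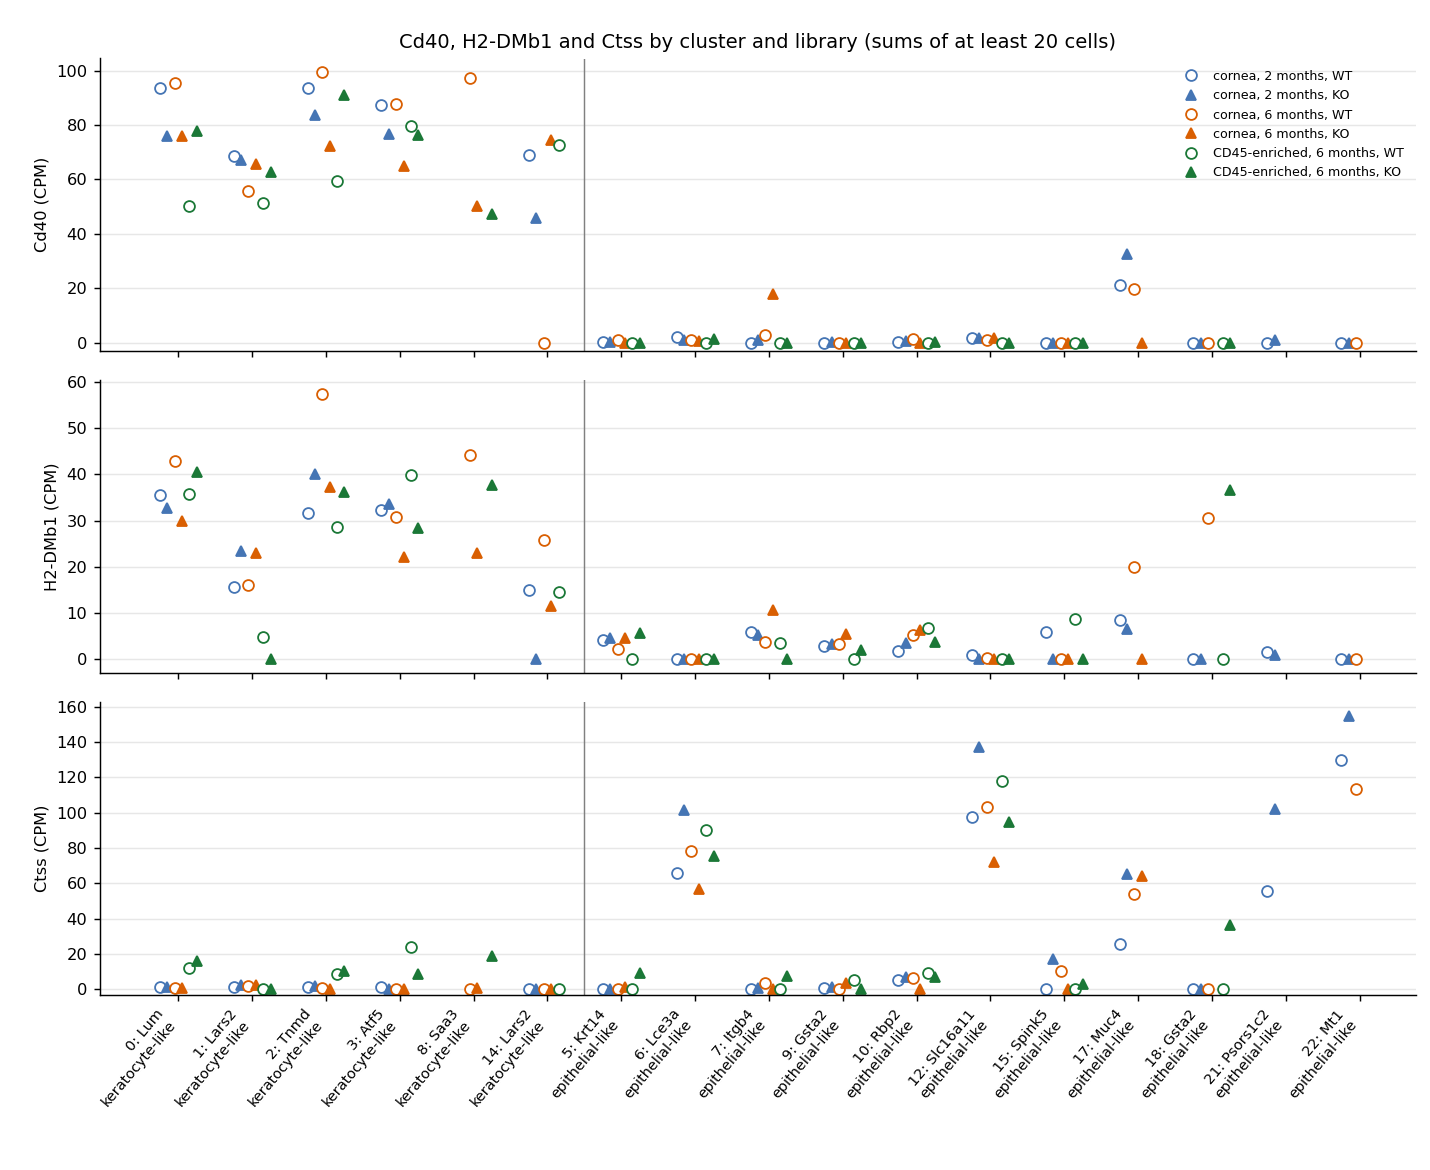
Levels of Cd40, H2-DMb1 and Ctss (CPM) in keratocyte-like clusters (left of the grey line) and epithelial-like clusters (right), 1 point per library for sums of at least 20 cells. Cd40 lies at 50.2 to 95.4 CPM in the largest keratocyte-like cluster, led by Lum, and Ctss lies at 57.0 to 137 CPM in the epithelial-like clusters led by Lce3a and Slc16a11.

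The next comparison was KO against WT in immune cells, with the pair of libraries as a term. At 2 months the ratio of KO to WT, rounded to 2 decimals, lay no more than 0.25 from 0 on the log2 scale for 7 of the 8 members that could be tested, Ciita being the other. At 6 months the 4 core genes, H2-DMa, H2-DMb1 and Ciita were lower in KO in both pairs, several-fold in the corneas and by less in the CD45-enriched cells. Over the 3 pairs together no member passed the test.

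The log2 ratio of KO to WT for H2-Aa was -0.05 (95% interval -0.15 to 0.04, counting error only) at 2 months, -1.83 (-1.94 to -1.72) in the 6-month corneas and -0.71 (-0.75 to -0.68) in the CD45-enriched cells. For Cd74 the ratios were 0.09, -2.13 and -0.38, and for H2-Ab1 -0.06, -2.05 and -0.39. H2-Eb1 gave 0.07, -2.19 and -0.48. All 4 core genes therefore showed the same order of pairs. H2-DMb1 gave 0.25, -2.27 and -0.34, and H2-DMa 0.06, -1.73 and -0.47. Ciita gave 1.30 (0.05 to 2.69, from 8 and 20 UMIs), -1.45 (-2.61 to -0.40) and -0.73 (-1.004 to -0.46); at 2 months it was higher in the KO library on few UMIs. Ctss gave 0.05, -0.05 and -0.03, and did not move with them in all immune cells.

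With edgeR's quasi-likelihood test over the 3 pairs, 0 of the 8 members tested passed a Benjamini-Hochberg adjusted p of 0.05, beside 0.3% of all genes (11 of 3663). All 8 had a value below 0, with a median of -0.85, against 0.01 over all genes. H2-Aa had -0.96 ± 0.31 (SE, adjusted p = 0.311), H2-Eb1 -0.95 ± 0.35 (0.518), H2-Ab1 -0.91 ± 0.33 (0.518) and Cd74 -0.88 ± 0.36 (0.637). Unadjusted, 229 genes had p under 0.05. DESeq2 called 7 genes and no member. H2-DMb2 and Cd40 had too few UMIs in immune cells to be tested. Without the 2-month KO library, the one with Y-linked UMIs, 7 of 8 members were called lower, beside 30 of 4177 genes. Likewise 7 were called without the 2-month WT library. With the pair as a term, the partner of a library left out no longer informs the genotype estimate. Both runs thus rest on the 6-month pairs and are not separate checks. Without either of the 6-month cornea libraries the median was -0.25 or -0.26 and no member was called, again as 1 result.

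Restricting the sums to macrophage-like sub-clusters made the 6-month differences of the core and DM genes smaller. It took out the unnamed Arg1-led sub-cluster, with its low core, and the neutrophil-like and T cell or ILC-like cells. Taking out low cells narrows a difference by itself, and the cause was not tested. Macrophage-like cells were 99.4, 94.5, 94.4 and 32.1% of the immune class in the corneas and 95.6 and 71.7% after enrichment. The share with this name was thus lower in KO at 6 months. H2-Aa stood at 9206, 9353, 8822 and 6617 CPM in macrophage-like cells of the corneas and at 8215 and 5979 CPM after enrichment. The 6-month KO values were still the lowest of their preparation, but by log2 -0.41 (-0.54 to -0.29) and -0.46 (-0.49 to -0.43), where the cornea difference over all immune cells was -1.83. Cd74 gave 0.15, -0.90 and -0.15 in the 3 pairs, and H2-DMb1 0.31, -1.26 and -0.15. Ctss went the other way in the 6-month corneas, at -0.40 (-0.71 to -0.09) where all immune cells gave -0.05, and stood at 0.09 and 0.08 in the other 2 pairs. By edgeR's quasi-likelihood test 0 of 8 members were called, beside 0.0722% of 2770 genes (68 at unadjusted p under 0.05), and the median was -0.34 against 0.00 over all genes. It was -0.06 without the 6-month WT cornea, -0.07 without the 6-month KO cornea, and -0.57 without either 2-month library, the KO one with Y-linked UMIs included. Here too the runs without either library of a pair are not separate checks. In counts simulated with the sizes and mean levels of these libraries, the same test recovered 42% of genes changed by a log2 of 1. It recovered 100% of those changed by 3. Differences of 0.3 to 0.4 are smaller than either. The simulation gave all genes 1 spread and all libraries 1 profile, without pair effects. Its shares therefore do not measure power in the real libraries.

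**Figure D5:**
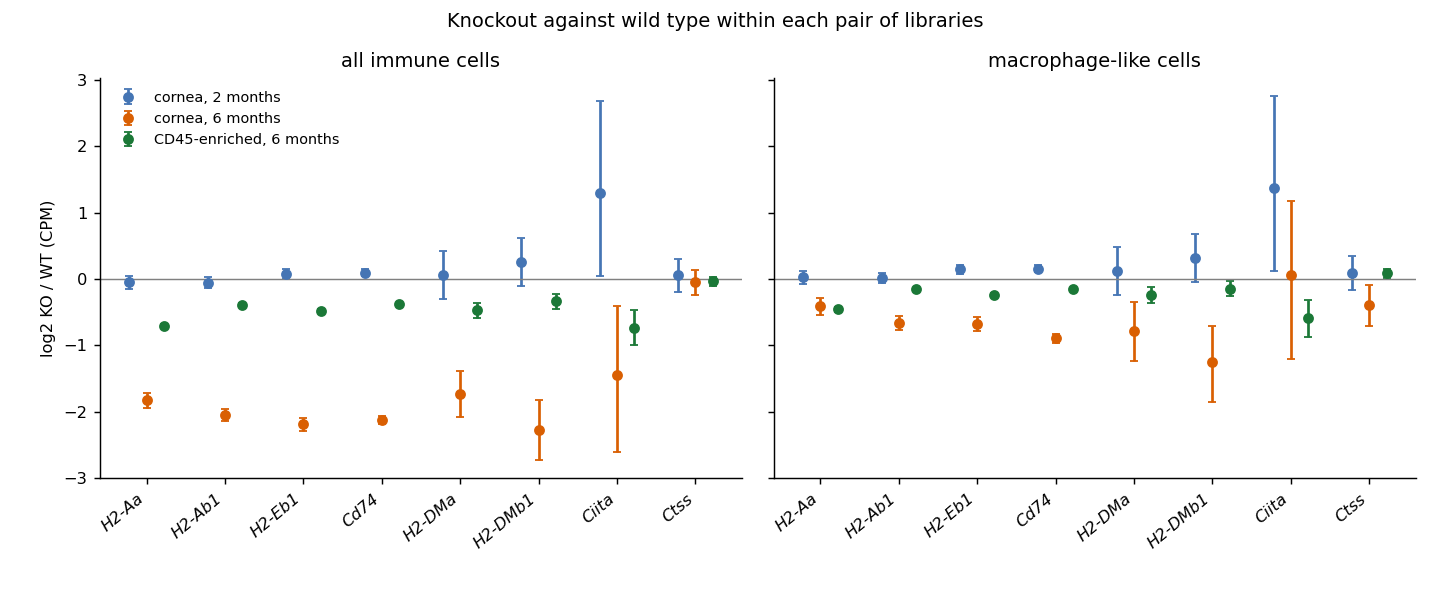
Log2 ratio of KO to WT for 8 members in each of the 3 pairs of libraries, with 95% intervals that cover counting error only, in all immune cells (left) and in macrophage-like cells (right). In all immune cells the 6-month cornea points of H2-Aa, H2-Ab1, H2-Eb1, Cd74, H2-DMa and H2-DMb1 lie between -1.73 and -2.27 and the 2-month points near 0, and in macrophage-like cells the 6-month values of these 6 genes lie nearer to 0.

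The difference between ages in the genotype effect was tested as an interaction term (6 months minus 2 months), chosen after these values were seen. No member was called in immune cells, beside 0.628% of 3663 genes, with 388 genes at unadjusted p under 0.05, 5 of them members. The estimates ran from -0.14 for Ctss to -2.27 for Ciita, with adjusted p from 0.134 to 0.954 in edgeR's quasi-likelihood test and 1 residual degree of freedom. In macrophage-like cells 0 of 8 were called, beside 0.217% of 2770 genes (163 at unadjusted p under 0.05). A genotype effect that differs between 2 and 6 months was therefore not called for any member.

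Age itself, 6 against 2 months in the 4 cornea libraries, called no member in immune cells. No gene of 2971 was called by edgeR's quasi-likelihood test (0.0%), 225 had an unadjusted p under 0.05, and DESeq2 called 13. All 8 members tested were below 0, with a median of -1.07 (-0.56 without the 2-month KO cornea) against -0.02 over all genes. H2-Eb1 had -1.32 ± 0.64 (adjusted p = 0.635). The median was 0.03 without the 6-month KO cornea and -2.12 without the 6-month WT cornea. Each fit without a cornea also dropped the genotype term, so it is not the same test less 1 library.

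In keratocyte-like cells of the corneas the genotype test called 0 of 9 members, beside 0.325% of 14146 genes (376 at unadjusted p under 0.05). All 9 had values below 0, with a median of -0.43 against 0.00 over all genes. This moved with single libraries: leaving out the 2-month KO cornea gave a median of -0.84, leaving out the 2-month WT cornea -0.01 and leaving out the 6-month KO cornea -0.07. A fit without a cornea also dropped the second term, age here and genotype in the age test. Genotype and age are then partly mixed. Cd40 had -0.43 ± 0.26, H2-DMa -0.54 ± 0.24 and H2-DMb1 -0.33 ± 0.24. By age 1 of 9 was called, beside 1.6% of genes. It was Cd74, which fell by 0.88 ± 0.25 (adjusted p = 0.0317, edgeR quasi-likelihood) from 13.1 and 11.1 CPM at 2 months to 8.51 and 5.96 CPM at 6 months, all of them far below free RNA. DESeq2 did not call it, nor did the test without either 2-month library. Cd40 and the DM genes had no age difference beyond their errors, at -0.21 ± 0.26 for Cd40, 0.12 ± 0.24 for H2-DMa and -0.04 ± 0.24 for H2-DMb1.

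In epithelial-like cells the genotype test called 0 of 8 members, beside 0.234% of 12413 genes (371 at unadjusted p under 0.05), and age 0 of 8, beside 6.21%. The members' median for genotype was 0.17, and -0.44 without the 2-month KO cornea. For age it was -0.14, and -0.01 without that library. The fits without that library also dropped the second term, so genotype and age are partly mixed in them. Ctss had -0.17 ± 0.26 for genotype and 0.52 ± 0.26 for age (adjusted p = 0.259, edgeR quasi-likelihood). The other members had few UMIs in this class.

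The wider pathway was read from lists chosen with earlier results of these data known. Of 26 further class II genes (peptide processing, promoter-binding factors, costimulation), 13 could be tested in immune cells by genotype and 0 were called, with a median of 0.02. Of 15 class I genes 11 were tested and 0 called (median -0.13), and of 19 interferon gamma response genes 7 were tested and 0 called (median -0.11). The members' median of -0.85 stood beyond all 3. The lysosomal proteases Ctsl and Ctsd, which cut invariant chain and antigen in some cells, lay on the other side. Ctsl stood at 242, 188, 416 and 1392 CPM in immune cells of the corneas and at 108 and 314 CPM after enrichment, and Ctsd at 131, 139, 245, 839, 140 and 263 CPM. Both were highest in the 6-month KO cornea, the library lowest in the classical chains, but neither passed the test (log2 1.01 and 0.93, adjusted p = 0.274 each, edgeR quasi-likelihood).

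In keratocyte-like cells 2 interferon gamma response genes were called lower in KO, of 16 tested, beside 15 of 14146 genes. They were the T-cell-attracting chemokines Cxcl9 (-3.25 ± 0.86, adjusted p = 0.0457) and Cxcl10 (-3.001 ± 0.40, adjusted p = 7.36e-11), both by edgeR's quasi-likelihood test. Cxcl9 stood at 3.49, 0, 0.10 and 0.33 CPM in the corneas and Cxcl10 at 15.7, 0.13, 2.80 and 2.29 CPM. Both were highest in the 2-month WT cornea, and at 6 months Cxcl9 was higher in KO than in WT, on very low levels. Over their alternatives the genotype call was lost in 4 of 6 for Cxcl9 and in 5 of 8 for Cxcl10. By age 1 of 16 was called, Cxcl9, as lower at 6 months, beside 109 of 14146 genes. That call was lost in 2 of 6 alternatives, and its sign turned in 1.

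Genes most like the core were read from 28 sums of immune sub-cluster and library, over 4817 genes, as Pearson correlation of log2(CPM + 10). The sums share libraries and depth, so the values are a description. A few sums lay far below the rest, those of T cell or ILC-like cells and of neutrophil-like cells led by S100a8, S100a9 and Lrg1. They held a core of 47.0 to 454 CPM and Ctss of 82.1 to 182 CPM. Such low sums weigh heavily in these correlations, and values without them were not computed. Among the members, H2-DMb1 (0.98), H2-DMa (0.97) and Ctss (0.92) ran close to the core, Ciita less so (0.69) and H2-DMb2 least (0.40). Near it among other genes were Aif1 (0.95), Cst3 (0.94), Slamf9 (0.94), C1qb (0.94), Ctsh (0.94), C1qa (0.93) and Mt1 (0.93). Aif1, C1qa and C1qb are macrophage genes, Cst3 encodes cystatin C, an inhibitor of cysteine proteases, and Ctsh encodes cathepsin H. Ctsd had a negative value (-0.30).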

How the data were processed

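The deposited files are raw UMI counts per gene and barcode, not filtered to cells. They were written by Cell Ranger 6.0.1 per the file headers, whereas the submitters' processing notes name Cell Ranger 2.1.1 and mm10. Corneas were digested, dead cells removed and libraries made with 10x 3′ v2 chemistry, per the labels' protocols.

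A barcode counted as a cell from 500 UMIs and 250 genes upwards, if mitochondrial genes gave no more than 20% of its UMIs and a multinomial test (1000 draws, adjusted p of 0.01) set it apart from free RNA. Scrublet at an expected rate of 0.06 removed 24 and 55 doublets from the WT and KO CD45-enriched libraries. It marked 0 in the corneas and was not used there. Cells were clustered without the members, other class II genes, Xist and Y-linked genes (scanpy 1.11.5, 2000 variable genes, 30 components, 15 neighbours, Leiden resolution 1.0), and clusters were named from marker lists. Sub-clusters led by keratocyte or epithelial genes or by mitochondrial genes, 28 to 289 cells per library, were set aside from the immune class.

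For each library the counts of a class were added up, and the sums were tested with edgeR 4.0.16 (quasi-likelihood, TMM, filterByExpr, Benjamini-Hochberg over all genes, adjusted p under 0.05), with DESeq2 1.42.0 as an alternative. Genotype in immune and macrophage-like cells used all 6 libraries with the pair as a term. Other tests used the 4 corneas, with age or genotype as the second term. Fits that left out 1 of the 4 corneas dropped this second term. Members were set against free RNA by an exact sign-flip test. Simulated counts with 200 changed genes checked the tests: genotype in immune cells recovered 29% of genes at a log2 of 1 and 100% at 3. They had 1 spread for all genes and no pair effects, unlike the real libraries. The members and lists were chosen with earlier results of these data known. All members are named, and of other lists the genes called, or otherwise the 2 with the largest change per test. Among genes of like pattern, 1 that the rule names is not reported here.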

Additional observations from a re-analysis of the deposited data

How the results depend on the processing

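The counts of members above free RNA (9 in immune, 1 in keratocyte-like and 0 in epithelial-like cells) stayed the same at 50 UMIs as the limit of free RNA, at 1000 UMIs per cell, with another clustering seed and without each library in turn, although 5 libraries allow no exact p below 0.0625. For genotype in immune cells the number of members called ran from 0 to 7 when 1 library was left out, beside 0 to 111 of all genes. It was 5 with the 6-month pairs only, beside 87 of 6807 genes, an alternative chosen after seeing the data. For age in immune cells the members' median ran from -2.12 to 0.03 when 1 library was left out, which also dropped the genotype term. For age in keratocyte-like cells DESeq2 called 0 members, beside 53 of 14146 genes. Without a filter on low counts 2 were called, beside 251 of 20655 genes, and at 1000 UMIs per cell 3, beside 333 of 14040. The members' median there ran from -0.96 to -0.55 when 1 library was left out, again without the genotype term. The cause was not tested. Genotype in macrophage-like, keratocyte-like and epithelial-like cells gave 0 members under every alternative run. The signs of 2 values turned: genotype in immune cells gave 0.038 for Ctss at 1000 UMIs per cell, and age in keratocyte-like cells gave 0.32 for Cxcl9 by DESeq2. Calls over all genes moved too: 0 to 111 for genotype in immune cells (11 in the fit reported), 0 to 6 (2) in macrophage-like, 0 to 72 (46) in keratocyte-like and 0 to 49 (29) in epithelial-like cells, and for age 0 to 224 (0) in immune, 53 to 3150 (226) in keratocyte-like and 47 to 778 (771) in epithelial-like cells. The labels give no replicate numbers. Without the replicate block, that is without the pair as a term, 0 members were called by genotype in immune and in macrophage-like cells. With 1 library per group and 1 or 2 residual degrees of freedom, changes of a log2 of 1 were mostly missed in simulated counts.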
